A study of Mus musculus with 13 samples.

Results

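Genes of the MHC class II presentation pathway, 8 in all, were followed through the 13 samples of a mouse tumour irradiation series: H2-Aa, H2-Ab1, H2-Eb1, H2-DMa, H2-DMb2, Cd74, Ciita and Ctss. They were taken by name, as 8 of the 561 genes on the panel, and all 8 of 8 passed the filter on low counts, which 415 genes passed. The RNA came from CD45+ cells, the leukocyte fraction, isolated with magnetic labelling from CT26 tumours, a colon carcinoma line grown under the skin of female BALB/c mice that were 6 weeks old when the tumour was implanted. The arms were 5 planned doses of 2 Gy (2Gy), a single dose of 7.5 Gy (7.5Gy) or no irradiation (0Gy), and 1 sample of each arm was read at PostRT1, PostRT2, Nadir and Regrowth, with 1 unirradiated PreRT sample before them. By their order, these phases match days 2, 7, 14 and 21 after the start of irradiation in the study's methods. The methods give 3 mice per group, and the sources used here do not state whether a sample is 1 mouse or a pool, nor how many of the 2 Gy doses came before PostRT1. All groups shared the tumour line, the mouse strain and the CD45+ selection.

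MHC class II molecules carry peptides from taken-up proteins to the surface of dendritic cells, macrophages and B cells, where CD4+ T cells read them. An alpha and a beta chain pair in the endoplasmic reticulum with the invariant chain, which blocks the groove and is cut away in endosomes, after which H2-DM exchanges the remaining fragment for peptide. Ciita, the transactivator that interferon-gamma induces, switches on the genes of the chains, the invariant chain and H2-DM together through shared promoter elements. BALB/c mice carry the H2-d haplotype and make both class II molecules, I-A and I-E.

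The assay counts barcoded probes on RNA without amplification, and the values below are normalized counts, scaled by the authors to a common level of the housekeeping genes. Total counts of the 561 genes per sample were 150567 to 650920 with a median of 229214. With 1 sample per condition, a comparison of 2 samples has no replicate check and no test, so folds are described with a 95% interval that covers counting error only. The column names place the samples in 3 numbered sets, called runs here. What a run stands for (a cartridge, a day or a batch of RNA) is not given in the sources used here, and the names of runs 2 and 3 carry the same date. Run 1 held the PostRT2 samples and the Nadir 2Gy sample, run 2 the Nadir 7.5Gy and 0Gy samples and all of Regrowth, and run 3 PreRT and PostRT1. Comparisons inside a phase stay in 1 run except Nadir 2Gy against Nadir 0Gy, and most steps between phases cross runs, where phase and run cannot be told apart. Ptprc, which encodes CD45, was between 199.6 and 1873 normalized counts, and all 7 pan-leukocyte genes were above background in 12 of the 13 samples, with 2 of them at background in the Regrowth 0Gy sample. In bulk RNA of this kind, fewer cells of a type and less RNA per cell cannot be told apart.

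Ciita was scarce. It had 45.0 normalized counts at PreRT. At PostRT1 it had 15.3 in the 2Gy sample and 16.2 in the 7.5Gy sample, against 12.3 in the 0Gy sample, and at PostRT2 it had 165 in the 2Gy sample and 158 in the 7.5Gy sample, against 81.4 in the 0Gy sample. Nadir gave 122 after 2Gy and 113 after 7.5Gy, against 56.5 after 0Gy, and Regrowth 36.9 after 2Gy and 37.5 after 7.5Gy, against 18.9 after 0Gy. Both irradiated samples were thus above the 0Gy sample in all 4 phases, by 0.32 to 1.11 on the log2 scale. The same held under the other scalings, except that relative to the pan-leukocyte genes 7 of the 8 differences were above 0 and the lowest was −0.64. The difference of 1.11, at Nadir after 2Gy, sets a run 1 sample against a run 2 sample and cannot be told apart from the run. The counting intervals at PostRT1 and Regrowth include 0. The raw counts behind these values were 8 to 214, and 14 in the Regrowth 0Gy sample, which was at its background threshold of 15.5.

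H2-Aa (chromosome 17, 34282744 to 34287823 on GRCm38.p6) encodes the alpha chain of I-A, and its level spanned the widest range of the 8 genes. It had 2111 normalized counts at PreRT and, at PostRT1, 1534 in the 2Gy sample and 454 in the 7.5Gy sample, against 1560.4 in the 0Gy sample. At PostRT2 it had 8646 after 2Gy and 9127 after 7.5Gy, against 7244 after 0Gy. At Nadir the values were 10105 after 2Gy, read in run 1, and 791 after 7.5Gy, against 715 after 0Gy, both read in run 2. At Regrowth they were 79.3 after 2Gy and 28.2 after 7.5Gy, against 124 after 0Gy. The highest sample, of run 1, was 359-fold above the lowest, of run 2. The SD of the H2-Aa log2 values, 2.76, was the highest of the 415 genes tested. H2-Aa lay between 7244 and 10105 in run 1, 28.2 and 791 in run 2, and 454 and 2111 in run 3, so this spread includes differences between runs. The lowest of these values, in the Regrowth 7.5Gy sample, rests on 18 raw counts, against a background threshold of 7.0 counts in that sample.

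H2-Ab1, the beta chain of I-A, ran from 197 normalized counts in the PostRT1 7.5Gy sample to 3916.5 in the PostRT2 7.5Gy sample, with 778 at PreRT. It had 526 in the 2Gy sample of PostRT1, against 555 in the 0Gy sample, and at Nadir 3289 after 2Gy and 2030.3 after 7.5Gy, against 1745 after 0Gy. At Regrowth it had 400.3 after 2Gy and 285 after 7.5Gy, against 308 after 0Gy. The 3 Regrowth samples thus all lay below PreRT, as they did for H2-Aa.

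H2-Eb1 (chromosome 17, 34305867 to 34316674), the beta chain of I-E, took another course. It had 480.05 normalized counts at PreRT and, at PostRT1, 241 in the 2Gy sample and 183 in the 7.5Gy sample, against 259 in the 0Gy sample. At PostRT2 it had 1071 after 2Gy and 1490.0 after 7.5Gy, against 852 after 0Gy. The Nadir samples held 1840.5 after 2Gy and 6782 after 7.5Gy, against 4043 after 0Gy, and the Regrowth samples 2703 after 2Gy and 2295 after 7.5Gy, against 1408 after 0Gy. Its highest sample was thus the Nadir 7.5Gy one, and all 3 Regrowth samples, read in another run, lay above PreRT.

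The promoters of H2-Aa and H2-Eb1 are shown because these genes sit in the same complex on chromosome 17 and parted most clearly. The 150 bases before each start site follow, 5′ to 3′, from RefSeq on GRCm38.p6, which is C57BL/6J sequence and not that of BALB/c. Capitals mark the letters searched.
H2-Aa, chr17:34287824-34287973, minus strand: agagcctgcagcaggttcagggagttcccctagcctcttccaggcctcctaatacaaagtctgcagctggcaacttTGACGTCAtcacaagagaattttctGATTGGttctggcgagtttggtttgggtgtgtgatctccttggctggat
H2-Eb1, chr17:34305717-34305866, plus strand: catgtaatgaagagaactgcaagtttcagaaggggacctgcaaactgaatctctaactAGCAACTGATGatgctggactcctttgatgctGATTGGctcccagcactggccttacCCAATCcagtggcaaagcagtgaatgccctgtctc

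Class II promoters are known for an X box, bound by RFX and, in its X2 part, by CREB-family proteins, and a Y box bound by NF-Y. The letters searched on both strands were GATTGG for the Y box core, TGACGTCA, which reads the same on both strands, for X2, and an X box consensus of 11 letters, which the capitals AGCAACTGATG of H2-Eb1 match. No 2 of the matches overlap. GATTGG lay 49 bases before the start of H2-Aa and 60 bases before that of H2-Eb1, with a second match on the opposite strand of H2-Eb1 at 35 bases. TGACGTCA lay 74 bases before the start of H2-Aa and the X box 92 bases before that of H2-Eb1. Over the 250 bases before each start, GATTGG was in 14.6% of the 32851 promoters of the table, TGACGTCA in 1.55% and the X box consensus in 0.816%. Of the 8 genes, 5 had a promoter in the table, with 6 entries. H2-DMb2 held GATTGG at 91 bases and 1 of the 2 H2-DMa entries at 199 bases, and the Ctss promoter held none of the 3. These matches are a description of the letters only.

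**Figure D1:**
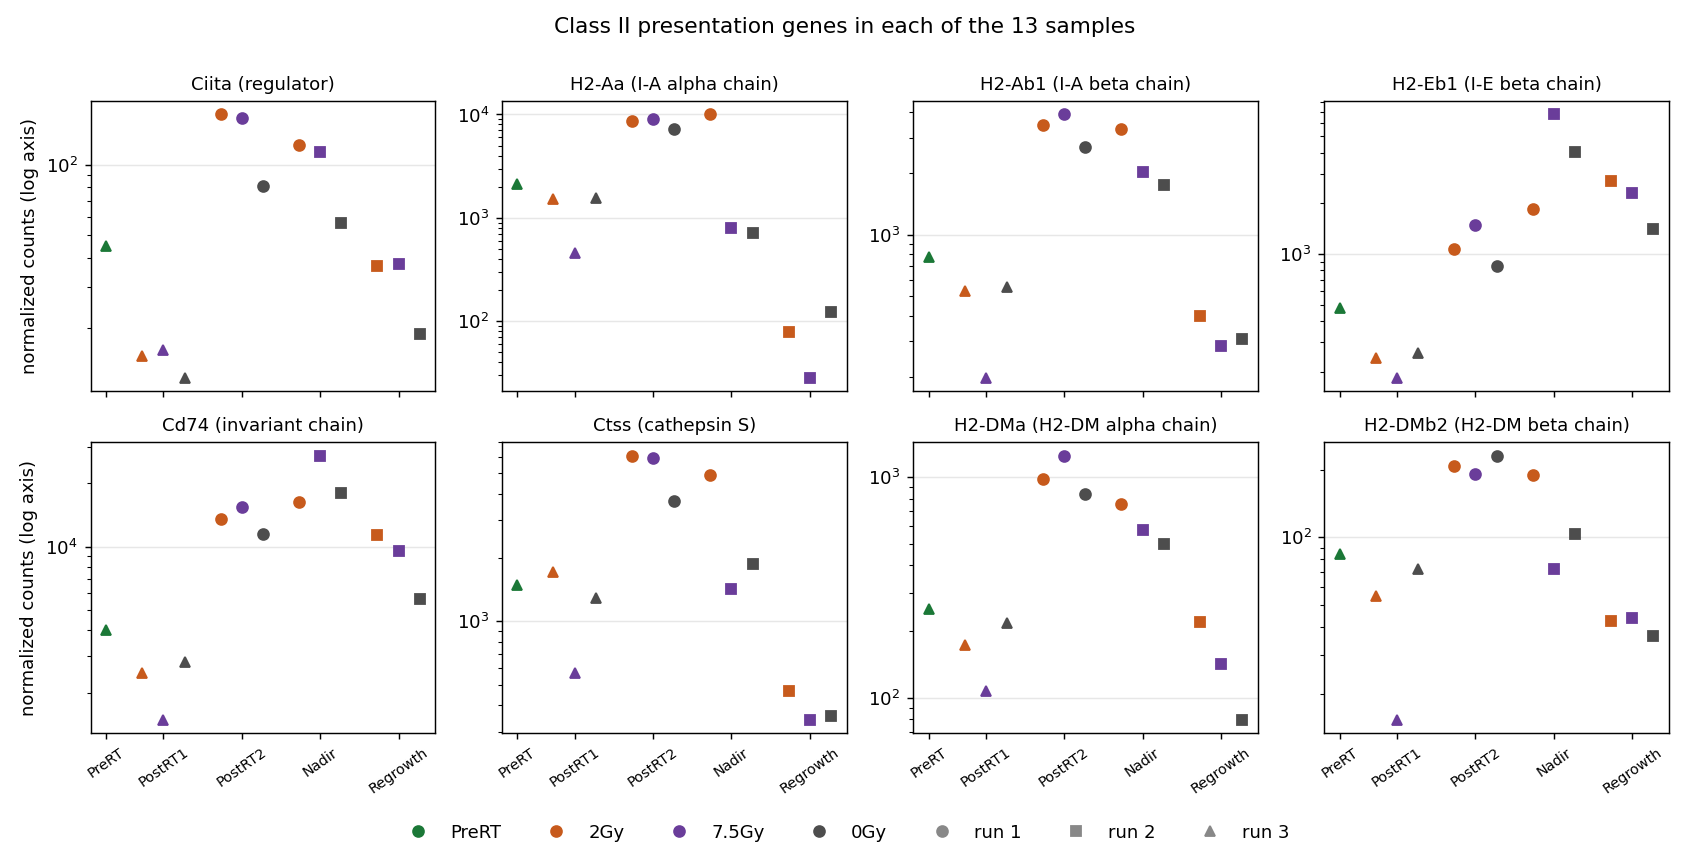
Normalized counts on a log axis (each panel has its own range) of the 8 class II genes, 1 point per sample in phase order, with colour for the arm and marker shape for the run. All 8 genes lie above PreRT at PostRT2, which was read in run 1. At Regrowth, read in run 2 (squares), H2-Aa lies between 28.2 and 124 and H2-Eb1 between 1408 and 2703.

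Cd74, the invariant chain, was the gene of the set with the highest counts, although counts of different probes do not rank levels between genes. It had 3999 normalized counts at PreRT and, at PostRT1, 2489.5 in the 2Gy sample and 1492 in the 7.5Gy sample, against 2806 in the 0Gy sample. PostRT2 gave 13573 after 2Gy and 15498 after 7.5Gy, against 11446 after 0Gy, and Nadir 16296 after 2Gy and 27181 after 7.5Gy, against 18040.2 after 0Gy. At Regrowth it had 11324 after 2Gy and 9565 after 7.5Gy, against 5631 after 0Gy. Cd74 thus shared with H2-Eb1 its highest sample and a Regrowth level above PreRT in all 3 arms.

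Ctss encodes cathepsin S, the protease that trims the invariant chain in antigen-presenting cells. It had 1477 normalized counts at PreRT and, at PostRT1, 1710.4 in the 2Gy sample and 572 in the 7.5Gy sample, against 1286 in the 0Gy sample. At PostRT2 it had 6069 after 2Gy and 5882 after 7.5Gy, against 3699.6 after 0Gy. At Regrowth it had 469 after 2Gy and 343 after 7.5Gy, against 357 after 0Gy, so its Regrowth samples lay below PreRT, as those of H2-Aa and H2-Ab1 did.

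H2-DMa and H2-DMb2 encode an alpha and a beta chain of the peptide-loading molecule H2-DM. H2-DMa was between 79.6 normalized counts in the Regrowth 0Gy sample and 1256 in the PostRT2 7.5Gy sample, with 254 at PreRT. H2-DMb2 was between 15.4 in the PostRT1 7.5Gy sample and 231 in the PostRT2 0Gy sample, with 84.6 at PreRT. The lowest H2-DMb2 value rests on 18 raw counts.

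At PostRT1 the question is what had changed in the first days of irradiation, and all samples are from run 3. The 7.5Gy sample had 5 of 8 genes 2-fold or more below the 0Gy sample and 0 above it, where 17.1% of the 415 genes were 2-fold lower and 3.61% higher. H2-DMb2 was 4.69-fold lower, with a log2 difference of −2.23 (interval −3.10 to −1.42), the lowest of the 415 genes. H2-Aa was 3.44-fold lower (log2 −1.78, −1.94 to −1.63), H2-Ab1 2.82-fold lower (log2 −1.49, −1.74 to −1.25), Ctss 2.25-fold lower (log2 −1.17, −1.32 to −1.02) and H2-DMa 2.02-fold lower (log2 −1.02, −1.38 to −0.66). Cd74 was at −0.91 and H2-Eb1 at −0.50. Ciita stood apart at 0.40, on 19 raw counts in the 7.5Gy sample and 8 in the 0Gy sample. The median of the 8 genes was −1.09, and that of all 415 genes −0.01.

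The 2Gy sample of PostRT1 differed little from its 0Gy sample. The log2 differences of the 8 genes lay between −0.39 for H2-DMb2 and 0.41 for Ctss, and 0 were 2-fold higher or lower, where 2.65% of the 415 genes were higher and 5.54% lower. Set against the 2Gy sample, the 7.5Gy sample was lower by 1.76 for H2-Aa, by 1.42 for H2-Ab1, by 1.83 for H2-DMb2 and by 1.58 for Ctss on the log2 scale. These differences and those against 0Gy share the 7.5Gy sample. Both irradiated samples, and the 0Gy sample, were lower than PreRT for most of the 8 genes. Against PreRT, 8 of 8 were 2-fold lower after 7.5Gy, where 25.1% of the 415 genes were, 1 of 8 after 2Gy (12%) and 1 of 8 after 0Gy (5.78%). That 1 gene was Ciita after both, at −1.56 after 2Gy and −1.87 after 0Gy. By 2-fold or more, 0 of 8 were higher than PreRT in any of them (2.65% of genes after 7.5Gy, 2.41% after 2Gy and 0.723% after 0Gy).

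Cell type markers moved with the low class II values of the PostRT1 7.5Gy sample. Of 9 monocyte and macrophage genes tested, 4 were 2-fold lower and 1 was higher than in the 0Gy sample, and the summed level of the 10 on the panel was 1553 normalized counts in the 7.5Gy sample and 2800.2 in the 0Gy sample. Of 7 pan-leukocyte genes, 2 were lower, with sums of 860.3 after 7.5Gy and 1111 after 0Gy. The summed level of the 7 genes listed for CD45-negative cells, such as the fibronectin gene Fn1, was 7697 after 7.5Gy and 5189 after 0Gy. Yet 0 of the 7 was 2-fold higher and their median was 0.16. This list, with Fn1, Cxcl12, Pdgfrb, Vcam1, Cdh5, Pecam1 and Thy1, was written by name. How much of its sum came from leukocytes was not tested. Of 8 T cell genes 4 were 2-fold lower, and of 4 neutrophil genes 2. When the pan-leukocyte genes set the scale, all genes tested had a median of 0.48 and 6.75% of them were 2-fold lower. On that scale 3 of the 8 class II genes were 2-fold lower, with H2-Aa at −1.29 and H2-DMb2 at −1.74. The part of these markers in the result was not tested.

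At PostRT2, within run 1, the genes were slightly higher after irradiation on the authors' scale, as most of the panel was. The median log2 difference of the 8 was 0.29 after 2Gy and 0.56 after 7.5Gy, against medians of 0.42 and 0.48 for the 415 genes. After 2Gy, 1 of 8 was 2-fold higher, Ciita, at 1.02 (0.56 to 1.49), where 19.3% of genes were 2-fold higher and 1.69% lower. After 7.5Gy, 0 of 8 passed 2-fold either way, where 22.2% of genes were higher and 1.69% lower, with Ciita at 0.96 (0.53 to 1.41) and H2-Eb1 at 0.81. H2-DMb2 was the gene of the set with values below 0 in both, at −0.16 and −0.27, and both intervals include 0. Ciita was under 2-fold after 2Gy with a pseudocount of 10 and under the other scalings to median ratios, total counts and pan-leukocyte genes. The scalings to median ratios and total counts bring the median of the 415 genes to −0.01 and −0.03 after 2Gy, and that of the 8 genes to −0.14 and −0.16. The summed pan-leukocyte level was 4806 after 2Gy and 5117 after 7.5Gy, against 2699 after 0Gy.

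At Nadir the 7.5Gy and 0Gy samples were both of run 2, and the 8 genes had a median of 0.21, against 0.24 for all genes. Ciita alone reached 2-fold, at 1.00 (0.40 to 1.63), where 11.8% of genes were 2-fold higher and 0.723% lower, and it stayed under 2-fold with the same 4 alternatives as at PostRT2. Cd74 was at 0.59 and H2-Eb1 at 0.75, while Ctss was at −0.40 and H2-DMb2 at −0.51. The Nadir 2Gy sample was read in run 1, so that its differences from the 0Gy sample, 3.82 for H2-Aa and −1.14 for H2-Eb1, cannot be told apart from the run. Against it, 3 of 8 genes were 2-fold higher (15.9% of genes) and 1 was lower (6.51%).

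At Regrowth, within run 2, H2-Aa and the other genes parted. After 7.5Gy, H2-Aa was 4.41-fold lower than after 0Gy, at −2.14 (−2.96 to −1.40), the lowest of the 415 genes, where 2.41% were 2-fold lower and 14% higher. It was the 1 of 8 genes past 2-fold, while H2-Eb1 was at 0.70 (0.59 to 0.82), Cd74 at 0.76 and H2-DMa at 0.84. After 2Gy, H2-Aa was at −0.65 (−1.15 to −0.16), and 2 of 8 genes were 2-fold higher, H2-DMa at 1.47 and Cd74 at 1.01, where 35.2% of all genes were higher and 0.482% lower. H2-Eb1 was at 0.94 after 2Gy, and H2-Ab1, the partner chain of H2-Aa, at 0.38 after 2Gy and −0.11 after 7.5Gy. Marker lists were higher in the irradiated samples of this phase: 6 of 9 monocyte and macrophage genes after 2Gy and 4 of 9 after 7.5Gy were 2-fold higher, and 6 and 4 of 7 pan-leukocyte genes. Against the pan-leukocyte genes, 0 class II genes were 2-fold higher after 2Gy and 4 were lower, where 45.1% of the 415 genes were, and after 7.5Gy 1 was lower, where 22.2% were. H2-Aa was lower after both regimens under each alternative tried, from −0.59 to −2.25 after 2Gy and from −1.81 to −2.97 after 7.5Gy. H2-Eb1 was higher after both except relative to the pan-leukocyte genes, where it was at −0.67 after 2Gy and −0.13 after 7.5Gy. H2-Ab1 after 2Gy turned to −0.34 with median ratios, −0.38 with total counts and −1.23 with the pan-leukocyte genes. The part of the markers in these values was not tested.

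**Figure D2:**
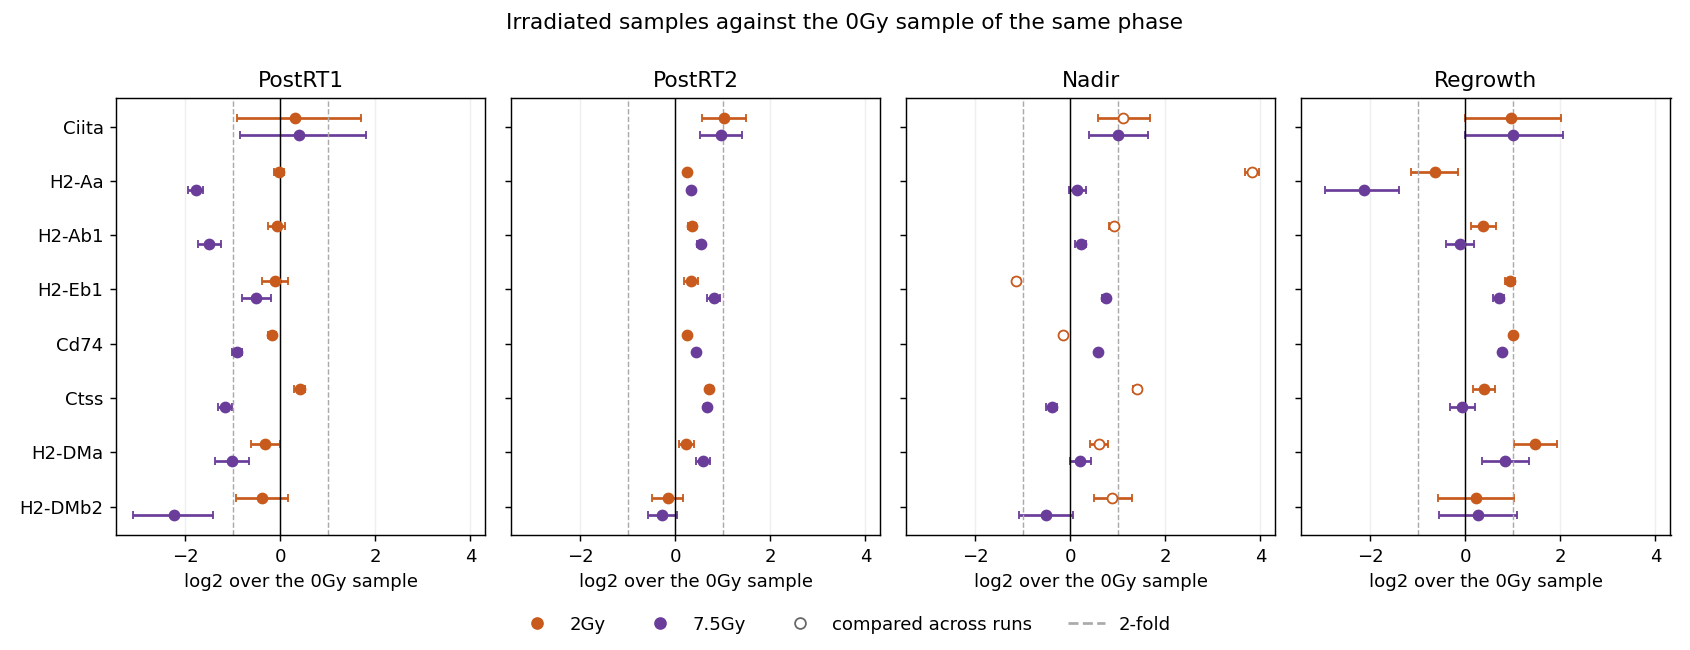
Log2 difference of each class II gene from the 0Gy sample of the same phase (x axis), with bars for the 95% counting interval, in 2Gy and 7.5Gy samples, dashed lines at 2-fold and open points where the samples came from different runs. At PostRT1 the 7.5Gy points of 5 genes lie beyond −1, and at Regrowth H2-Aa, at −2.14 after 7.5Gy, lies left of all other genes.

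The arms were also compared over the 4 phases, in a fit across all 415 genes that takes the phases in place of replicates. No arm difference of a class II gene passed edgeR's quasi-likelihood test with Benjamini-Hochberg adjustment. In 2Gy against 0Gy 0 of 8 genes passed in either direction, and 0% of the 415 genes were called by edgeR. In 7.5Gy against 0Gy 0 of 8 passed, with 1.2% of genes called higher and 0% lower, and in 7.5Gy against 2Gy 0 of 8 passed and 0% of genes were called. DESeq2 and limma also called 0 of the 8 in each. Over all genes limma called 0%, and DESeq2 called 7.95% higher and 1.69% lower in 2Gy against 0Gy, 3.37% higher and 0.241% lower in 7.5Gy against 0Gy, and 0.241% lower in 7.5Gy against 2Gy. At an unadjusted p under 0.05 by edgeR, 1 of 8 was higher in 2Gy against 0Gy, where 43 of the 415 genes were higher and 27 lower. In 7.5Gy against 0Gy 1 of 8 was higher and 1 lower, where 36 of the 415 genes were higher and 10 lower. In 7.5Gy against 2Gy 2 of 8 were lower, where 16 of the 415 genes were lower and 10 higher. The class II genes at this level were Ciita, at 0.54 in 2Gy against 0Gy (edgeR adjusted p = 0.294) and 0.64 in 7.5Gy against 0Gy (0.435). The others were H2-DMb2 at −0.84 in 7.5Gy against 0Gy (0.435), and H2-Aa at −1.74 and Ctss at −0.84 in 7.5Gy against 2Gy (0.673 each). The lowest adjusted p of any of the 24 estimates under any alternative was 0.0535. Of these 24, 10 turned sign under at least 1 alternative, and the 5 named here kept theirs under all 10 alternatives. Among the alternatives, the run as a term and the fit without the Nadir 2Gy sample amount to the same fit.

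Between phases the same fit takes the 3 arms in place of replicates. From PostRT1 to PostRT2 all 8 genes were higher and 8 of 8 passed, where 27.2% of the 415 genes were called higher and 26.0% lower. H2-Aa changed by 2.41 ± 0.71 (SE, log2; edgeR adjusted p = 0.0111), Ciita by 2.39 ± 0.30 (0.000467), H2-Ab1 by 2.29 ± 0.34 (0.000853) and H2-DMa by 1.87 ± 0.30 (0.000853). Cd74 changed by 1.80, H2-DMb2 by 1.54, H2-Eb1 by 1.49 and Ctss by 1.48. Without the 7.5Gy arm 6 of 8 passed, where 14.5% of genes were called higher, and H2-Aa (edgeR adjusted p = 0.0745) and Ctss (0.0598) did not. The 0Gy samples showed it too, with H2-Aa 2.21 and H2-Ab1 2.28 higher at PostRT2. This step crosses from run 3 to run 1 in every arm, so phase and run cannot be told apart. Pan-leukocyte genes were called higher in 5 of 7 cases and monocyte and macrophage genes in 6 of 9. Of the genes listed for CD45-negative cells, 5 of 7 were called lower. All 4 neutrophil genes tested were called higher, with a median of 2.71, and 3 of 8 T cell genes. Their part in the result was not tested.

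In Nadir against PostRT2, H2-Eb1 passed, at 2.28 ± 0.37 (edgeR adjusted p = 0.00866), and the other 7 did not, where 4.82% of genes were called higher and 3.86% lower. H2-Eb1 did not pass without the 0Gy arm (adjusted p = 0.11). Cd74 was at 1.04 (adjusted p = 0.0793) and H2-Aa at −1.43 (adjusted p = 0.266). The Nadir 2Gy sample decided the second of these: without it, H2-Aa passed at −2.93 (adjusted p = 0.00453), with H2-Eb1 and Cd74 called higher. Inside run 1, where the 2Gy arm can be followed, the 8 genes moved by −0.44 for Ciita to 0.78 for H2-Eb1 from PostRT2 to Nadir, with 0 of 8 at 2-fold, where 2.89% of genes were 2-fold higher and 18.8% lower. H2-Aa moved by 0.23 there. In the other arms, whose samples changed from run 1 to run 2, H2-Aa moved by −3.53 in 7.5Gy and −3.34 in 0Gy samples, and H2-Eb1 by 2.19 and 2.25.

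In Regrowth against Nadir, 5 of 8 genes passed and were lower, where 3.61% of genes were called lower and 1.93% higher. H2-Aa was at −4.62 (SE 0.84, edgeR adjusted p = 0.00532), H2-Ab1 at −2.34 (SE 0.34, 0.00265), Ctss at −2.16 (SE 0.39, 0.00532), H2-DMa at −1.67 (SE 0.30, 0.00532) and Ciita at −1.19 (SE 0.29, 0.0358). H2-DMb2 was at −1.04 (adjusted p = 0.108), Cd74 at −0.78 (0.144) and H2-Eb1 at −0.48 (0.37). Without the 0Gy arm, or without the 2Gy arm, 0 of 8 passed, as did 0 of all 415 genes, with H2-Aa then at −5.91 and −2.87 (adjusted p = 0.063 and 0.116). With the run as a term, 4 of 8 passed, where 1.45% of genes were called lower, with H2-Aa at −3.05. That term only sets the Nadir 2Gy sample apart and gave the same counts as leaving that sample out. It does not correct for run elsewhere. Both the 7.5Gy and the 0Gy step lie inside run 2. In the 0Gy samples 8 of 8 genes were at least 2-fold lower at Regrowth, where 37.6% of genes were lower and 1.2% higher, between −2.65 for H2-DMa and −1.50 for H2-DMb2. In the 7.5Gy samples 7 of 8 were, where 33.7% of genes were lower and 0.723% higher, with H2-Aa at −4.81 (−5.58 to −4.14), H2-Ab1 at −2.83, H2-Eb1 at −1.56 and Cd74 at −1.51. Relative to the pan-leukocyte genes these counts were 2 of 8 in both arms, with H2-Eb1 at 0.003 and H2-DMb2 at 0.02 after 0Gy. On that scale 0.964% of the 415 genes were 2-fold lower after 0Gy and 5.06% after 7.5Gy. In the same step 9 of 9 monocyte and macrophage genes and 6 of 7 pan-leukocyte genes were 2-fold lower after 0Gy, and 4 of 9 and 4 of 7 after 7.5Gy.

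Against PreRT, which lies in run 3, the later phases differ in run as well as in phase. At PostRT2, 8 of 8 genes were 2-fold higher after 2Gy (37.6% of genes higher, 3.61% lower) and after 7.5Gy (41.7% higher, 5.54% lower) and 6 of 8 after 0Gy (19.0% higher, 6.02% lower), and 0 were lower. At Nadir, 8 of 8 were higher after 2Gy (21.2%, with 8.19% lower), and 5 were higher and 1 lower after 7.5Gy (20.5% and 8.19%), against 3 higher and 1 lower after 0Gy (13.3% and 15.2%). At Regrowth, 2 were higher and 2 lower after 2Gy (18.1% and 12.3%) and 2 higher and 3 lower after 7.5Gy (8.92% and 25.3%), against 1 higher and 6 lower after 0Gy (5.06% and 38.1%). The 1 gene above PreRT in the Regrowth 0Gy sample was H2-Eb1, at 1.55, while H2-Aa was at −4.09 there. These 12 comparisons share the PreRT sample. Relative to the pan-leukocyte genes 0 of 8 were 2-fold above PreRT at PostRT2 after 2Gy (3.86% of genes) or 7.5Gy (5.3%).

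**Figure D3:**
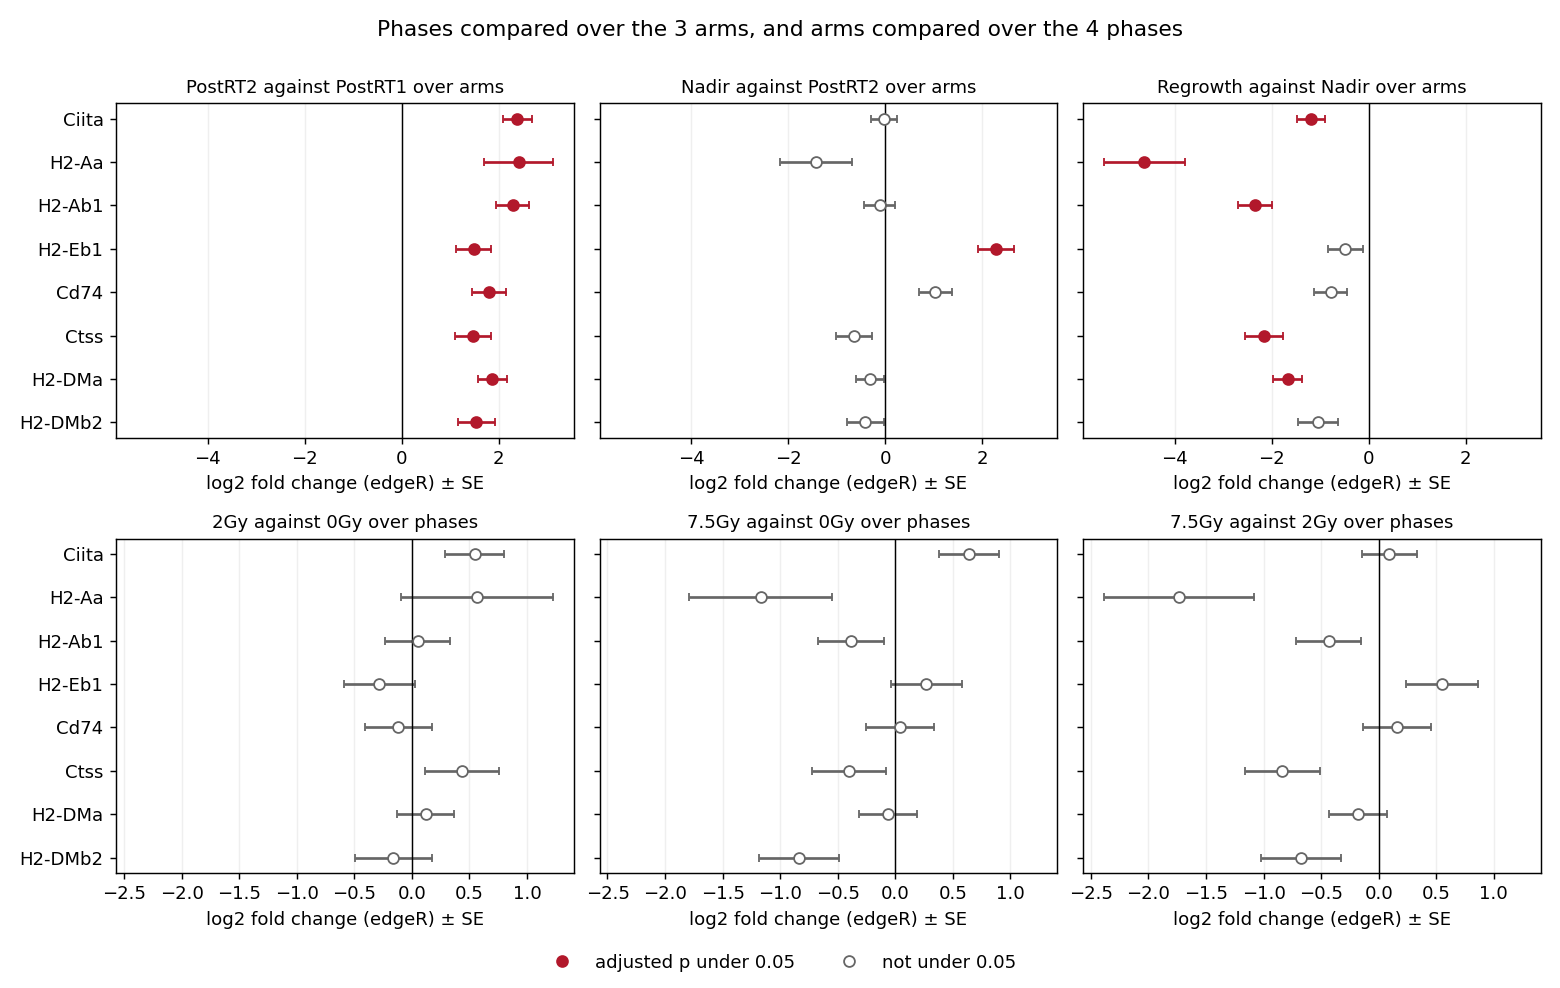
Log2 fold change of each class II gene in edgeR (x axis, bars are 1 SE), for 3 steps between phases over the arms (top) and 3 differences between arms over the phases (bottom), filled where the adjusted p is under 0.05. All 8 genes pass in PostRT2 against PostRT1, H2-Eb1 in Nadir against PostRT2 and 5 genes in Regrowth against Nadir, and 0 pass between arms.

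The ratio of 2 counts inside 1 sample does not depend on how samples are scaled, so it shows how far 2 genes moved apart. The ratio of H2-Aa to H2-Eb1 was 4.40 at PreRT (interval 3.92 to 4.94). At PostRT1 it was 6.37 after 2Gy and 2.48 after 7.5Gy (2.11 to 2.92), against 6.02 after 0Gy (5.11 to 7.12), and at PostRT2 8.07 after 2Gy and 6.13 after 7.5Gy, against 8.50 after 0Gy. At Nadir it was 5.49 after 2Gy and 0.117 after 7.5Gy, against 0.177 after 0Gy, and at Regrowth 0.0293 after 2Gy and 0.0123 after 7.5Gy, against 0.0881 after 0Gy. The 5 samples of run 2 thus lay between 0.0123 and 0.177, and the other 8 between 2.48 and 8.50, with no overlap. The Nadir samples split by run, the 2Gy sample of run 1 lying with the 8, and there run and arm cannot be told apart.

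Differences inside a run remain. At Regrowth the intervals of the ratio were 0.0222 to 0.0381 after 2Gy and 0.00725 to 0.0195 after 7.5Gy, against 0.0704 to 0.109 after 0Gy, and none of the 3 overlap. On the log2 scale the ratio differed from that after 0Gy by −1.59 after 2Gy and by −2.84 after 7.5Gy. At PostRT1 the 7.5Gy ratio differed from the 0Gy ratio by −1.28 and the 2Gy ratio by 0.08. Under 7.5Gy the ratio was the lowest of the 3 arms in all 4 phases. At Nadir only the 7.5Gy and 0Gy samples share a run, and the 2Gy sample is of run 1. Over time in run 2, the Regrowth ratio of 0.0123 in the 7.5Gy arm stood against 0.117 at Nadir, and that of 0.0881 in the 0Gy arm against 0.177 at Nadir.

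H2-Aa and H2-Ab1, whose proteins pair, kept their ratio in runs 1 and 3 and not in run 2. It was between 2.33 and 3.07 in run 1 and between 2.30 and 2.91 in run 3, and between 0.0989 and 0.410 in run 2. Inside run 2, it was 0.390 at Nadir after 7.5Gy, against 0.410 after 0Gy, and at Regrowth 0.198 after 2Gy (0.147 to 0.263) and 0.0989 after 7.5Gy (0.0573 to 0.161), against 0.404 after 0Gy (0.313 to 0.516). The ratio of H2-Ab1 to H2-Eb1 was 1.79 to 3.22 in run 1, 1.08 to 2.18 in run 3 and 0.124 to 0.432 in run 2. Of the 28 pairs of the 8 genes, 19 (67.9%) had a ratio in run 2 outside the range of the other 8 samples, as had 10.9% of the 85905 pairs of tested genes. The 28 pairs reuse the same 8 genes, so they are not independent, and these genes were chosen with earlier results of these data known. The shares were not tested against each other. Taken singly, 0 of the 8 genes and 13.7% of the 415 had run 2 outside the range of the other 8 samples.

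**Figure D4:**
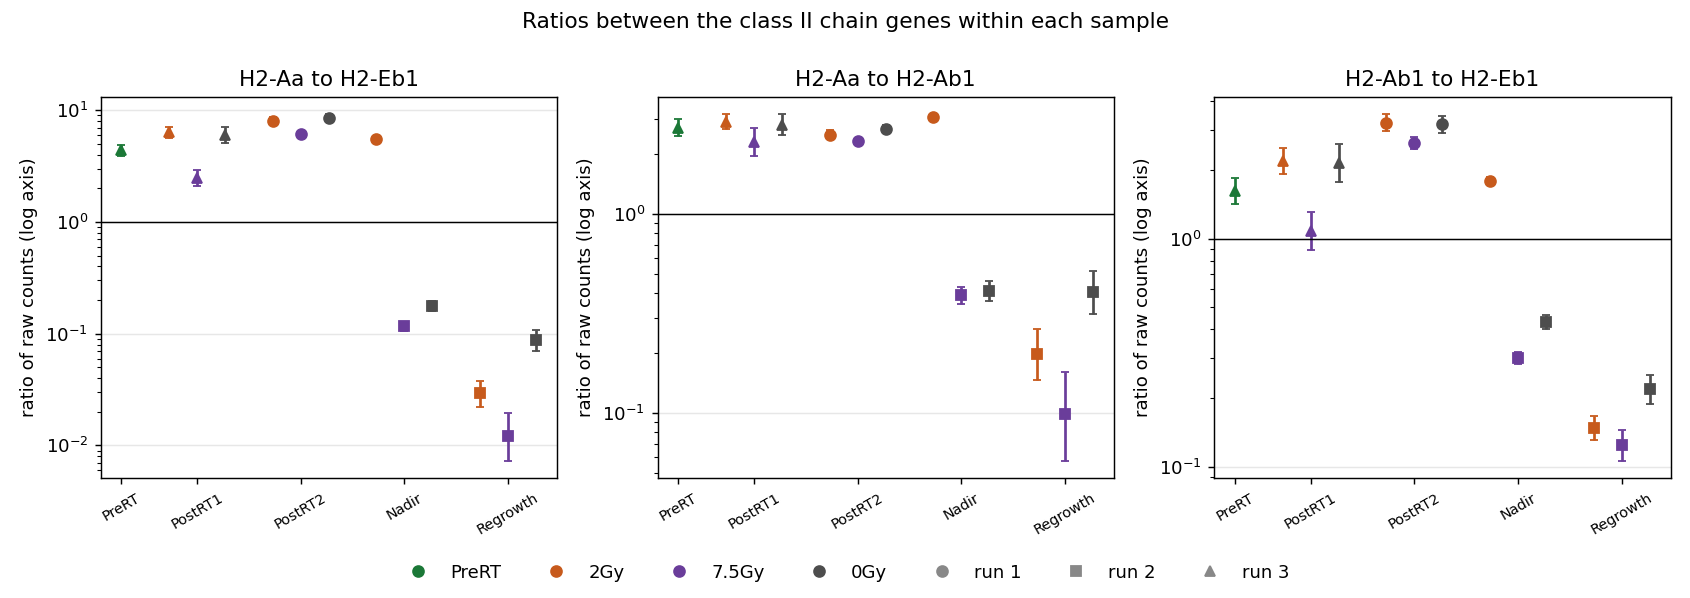
Ratios of raw counts between H2-Aa, H2-Ab1 and H2-Eb1 inside each sample, on log axes, with bars for the 95% counting interval, colour for the arm and marker shape for the run. The run 2 samples (squares) lie below 1 in all 3 panels, and at Regrowth the H2-Aa to H2-Eb1 ratio is 0.0293 after 2Gy and 0.0123 after 7.5Gy, against 0.0881 after 0Gy.

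The genes whose course over the 13 samples was most like that of H2-Aa or H2-Eb1 were found by the mean absolute difference of log2 values, each gene centred on its own mean. For H2-Aa these were Lilrb4a, an inhibitory receptor of myeloid cells, at 0.80, Hif1a, a subunit of the hypoxia-inducible factor, at 1.12 and Ctss at 1.14. For H2-Eb1 they were Hcst, a signalling adaptor of activating receptors, at 0.55, Cd74 at 0.61 and Tnfrsf13b, a receptor for the B cell factors BAFF and APRIL, at 0.72. H2-Eb1 was not among the 3 genes most like H2-Aa, nor H2-Aa among the 3 most like H2-Eb1. The 13 samples span 3 runs, so differences between runs enter these values, and their part was not tested.

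Genes that drive or restrain class II expression came from lists written by name. Ifng, the interferon-gamma gene, had 28.7 normalized counts after 2Gy and 44.0 after 7.5Gy at PostRT2, against 12.7 after 0Gy, and at Nadir 9.67 after 2Gy and 47.8 after 7.5Gy, against 23.3 after 0Gy. It was at background in the 0Gy sample of all 4 phases and in the 2Gy samples of Nadir and Regrowth. Irf1, which interferon-gamma induces and which binds the Ciita promoter, had 2630 after 2Gy and 3945 after 7.5Gy at PostRT2, against 1157 after 0Gy.

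Irf8, a factor of dendritic cells and macrophages, was called higher in PostRT2 against PostRT1 (1.72 ± 0.29, edgeR adjusted p = 0.000902) and lower in Regrowth against Nadir (−1.33 ± 0.30, adjusted p = 0.0314), the directions of the class II genes in those steps. The inducers Ifngr2, a chain of the interferon-gamma receptor, and Jak2, its kinase, were called lower in PostRT2 against PostRT1 (−0.86 and −0.65, edgeR adjusted p = 0.00941 and 0.0408). Of the 6 genes that can restrain class II expression, such as Il10 and Socs1, 0 were called in 2Gy against 0Gy or in 7.5Gy against 0Gy by edgeR. In PostRT2 against PostRT1 Il10 was called lower (−1.75, edgeR adjusted p = 0.00162), where 26.0% of genes were. Il10ra (1.16, 0.00418) and Tgfb1 (0.71, 0.03) were called higher there, where 27.2% of genes were. In Nadir against PostRT2 Socs1 was called lower (−1.08, edgeR adjusted p = 0.0414) and Socs3 higher (0.99, 0.049), where 3.86% and 4.82% of genes were. In Regrowth against Nadir 0 of the 6 were called. Cd4, the co-receptor that binds class II, was between 10.3 and 65.2 normalized counts and was called by edgeR in no step or arm difference, with a lowest adjusted p of 0.0853. Of the 12 other genes listed for the pathway, 1 was matched by symbol, H2-Ob, a chain of H2-O that restrains H2-DM, whose counts were at background in 11 of 13 samples. The panel also has 12 accessions with no matched symbol, which were counted in no list.

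Dendritic cells, which carry much class II, were thinly covered by this panel. Of 4 dendritic cell genes 2 passed the filter, and Xcr1 and Batf3 did not. The summed level of the 10 monocyte and macrophage genes was 11297 normalized counts after 2Gy and 12808 after 7.5Gy at PostRT2, against 7186 after 0Gy, and at Regrowth 5796 after 2Gy and 4149.8 after 7.5Gy, against 1768 after 0Gy.

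**Figure D5:**
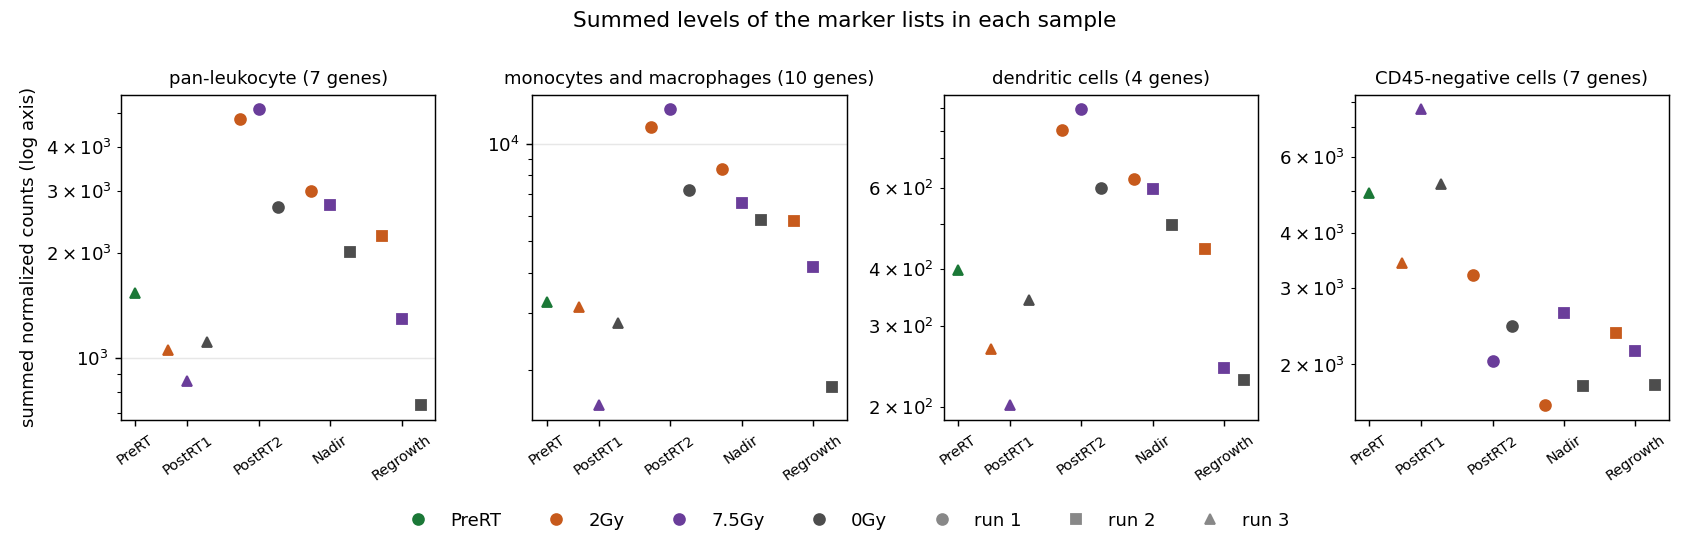
Summed normalized counts, on log axes with their own ranges, of 4 marker lists in each sample, with colour for the arm and marker shape for the run. The PostRT1 7.5Gy sample has the highest sum of the genes listed for CD45-negative cells (7697), and the Regrowth 0Gy sample has the lowest pan-leukocyte sum (734.4).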

How the data were processed

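Raw nCounter counts per probe and the authors' normalized values were deposited for 13 samples. The counts are as deposited by the authors from the nCounter system. The normalized signal values, as deposited by the authors, are counts times 1 factor per sample that brings the geometric mean of 14 housekeeping genes to 789.3. Values that would fall under a floor of 2.45 to 8.05 per sample were set to it, which touched 794 of 7293 values and 0 of the 8 genes. The software is not given in the sources used here, and the series table repeats these values with 0 of 7475 different. Of 561 accessions, 549 matched a RefSeq symbol. Genes with a mean count over the mean background threshold of 13.11 counts (mean plus 2 SD of 8 negative controls) were tested, which left 415 and removed 132. Folds used values of at least 1, and exact binomial (Clopper-Pearson) 95% intervals of raw count ratios. Fits of phase plus arm on 12 samples used edgeR 4.0.16 (TMM factors, quasi-likelihood test, Benjamini-Hochberg, threshold 0.05), with DESeq2 1.42.0 and limma 3.58.1 as alternatives, in R 4.3.3. The p-values measure the spread between phases or arms, not between mice. Scripts were tested on simulated data. Other steps used Python 3.11.15, pandas 2.3.3 and scipy 1.17.1. All 8 genes are named. The members and lists were chosen with earlier results of these data known. Some results are not reported here.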

Additional observations from a re-analysis of the deposited data

How the results depend on the processing

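No paired analysis was possible because each condition has 1 sample and the labels carry no replicate numbers, and what the numbers in the column names mark is not given. The precision is limited by that single sample and, for Ciita and H2-DMb2, by low counts. Scaling to 7 pan-leukocyte genes moved the most counts of genes past 2-fold. Brackets give the share of the 415 genes. Under it, in comparisons with 0Gy, 3 were lower at PostRT1 after 7.5Gy (6.75%). At PostRT2 0 were higher after 2Gy (4.1%) and 1 lower after 7.5Gy (20.5%). At Nadir 1 was higher after 2Gy (4.82%) and 0 after 7.5Gy (4.1%). At Regrowth after 2Gy 0 were higher (2.41%) and 4 lower (45.1%). Against PreRT it gave 3 lower at PostRT1 after 7.5Gy (5.78%). At PostRT2 it gave 0 above PreRT after 2Gy (3.86%) and 7.5Gy (5.3%) and 3 after 0Gy (5.78%). At Nadir it gave 4 above PreRT after 2Gy (6.02%) and 2 after 7.5Gy (8.19%). At Regrowth it gave 4 below PreRT after 2Gy (19.0%), and 2 above (35.7%) with 1 below (5.3%) after 0Gy. Of the values past 2-fold, those that turned sign under it were −0.14 for H2-DMa and −0.60 for Cd74 in Regrowth 2Gy against 0Gy, −0.32 for H2-Eb1 and −0.19 for H2-DMb2 in PostRT2 2Gy against PreRT, −0.41 for H2-DMb2 in PostRT2 7.5Gy against PreRT, 0.11 for H2-DMb2 and 0.073 for Ciita in Regrowth 0Gy against PreRT, and 0.0033 for H2-Eb1 and 0.025 for H2-DMb2 in Regrowth 0Gy against Nadir 0Gy.

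Scaling to median ratios gave, against 0Gy, 0 higher at PostRT2 after 2Gy (8.43%) and at Nadir after 7.5Gy (6.27%). At Regrowth after 2Gy it gave 0 higher (13.7%) with 1 lower (7.95%) than 0Gy. Against PreRT it gave 4 lower at Regrowth after 2Gy (14%) and 2 higher (14.5%) with 2 lower (14.7%) after 0Gy. Scaling to total counts gave the same counts in these 3 comparisons with 0Gy (8.43%, 6.99%, and 13.5% with 10.1%). At Nadir after 2Gy it gave 1 higher than 0Gy (4.82%). Against PreRT it gave 2 lower at PostRT1 after 2Gy (17.6%). At PostRT2 it gave 5 above PreRT after 2Gy (15.7%) and 3 after 7.5Gy (10.6%). At Nadir it gave 5 above PreRT after 2Gy (7.47%) and 3 after 7.5Gy (13.7%). At Regrowth it gave 4 below PreRT after 2Gy (23.1%) and 3 after 0Gy (23.6%). A pseudocount of 10 gave 0 higher than 0Gy at PostRT2 after 2Gy (15.9%) and at Nadir after 7.5Gy (8.43%). With negative controls subtracted, 1 was higher after 7.5Gy against 0Gy at PostRT2 (25.3%) and at Regrowth (26.5%). Against PreRT 2 were then lower at PostRT1 after 2Gy (12.8%). With this subtraction the 12 ratios of H2-Aa to H2-Eb1 outside PreRT moved by less than their intervals. For steps inside a run, alternatives were chosen after seeing the data, and values follow for median ratios and then pan-leukocyte genes. In Nadir 2Gy against PostRT2 2Gy 1 was higher under each (6.02% and 10.6%). In Regrowth against Nadir 4 and 2 were lower after 7.5Gy (13% and 5.06%), and 5 and 2 after 0Gy (15.2% and 0.964%).

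In the fits, brackets give the share of all genes called. DESeq2 called 2 of the 8 higher in Nadir against PostRT2 (7.95%). The fit without the Nadir 2Gy sample called 2 higher (8.19%) and 1 lower (4.58%) there. Leaving out 1 arm at a time gave 0 to 1 higher (0% to 3.61%) and 0 to 1 lower (0% to 1.45%) in that step. H2-Ab1 was then between −0.38 and 0.11 and Ciita between −0.078 and 0.044. In Regrowth against Nadir it gave 0 to 5 lower (0% to 4.82%). The run could not be fitted as a term in PostRT2 against PostRT1 or Nadir against PostRT2. Counts between arms stayed at 0 under every alternative. The cause of these changes was not tested.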
